A study of Helianthus annuus with 9 samples.

Results

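A set of 372 circular RNA (circRNA), out of 3482 listed in sunflower seeds, appeared on day 7 and on neither later day. A circRNA was taken into the set if its signal was above 0 in at least 2 of the 3 day 7 libraries and 0 in all 6 libraries of day 22 and day 37. The set held 10.7% of the circRNA listed. The same rule turned round gave 34 circRNA for day 22 and 46 for day 37. The set was thus chosen by its day 7 and late signals, and the difference between day 7 and the late days is a description that was not tested.

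A circRNA is a closed loop of RNA that forms when the spliceosome joins the end of a later exon back to the start of an earlier one, a step called back-splicing. The loop has no cap and no tail, resists enzymes that degrade RNA from its ends, and is counted by reads that cross the back-splice junction. In plants as in animals, the level of a circRNA depends on transcription of its host gene, on the splicing choice and on how long the loop persists. A seed early in development holds the young embryo, the endosperm that feeds it and the maternal coat, and later fills with oil and storage protein.

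All libraries came from seeds of field-grown sunflower (Helianthus annuus) of the line L-1-OL-1, which has a high oleic acid content, with no treatment. The groups were day 7, day 22 and day 37, each with 3 libraries of total RNA depleted of ribosomal RNA, and the labels do not say what event the days count from. No label ties the 3 libraries of a day to separate plants, and p-values here reflect only the spread of the libraries, which may be technical. The circRNA tables carry a scaled signal without a unit, and gene levels are FPKM (fragments scaled to transcript length and library total). The circRNA are taken as listed, and whether each is a closed loop made by back-splicing was not tested. The day 7 libraries listed 1113, 1111 and 1237 circRNA above 0. The day 22 libraries listed 585, 396 and 319, and the day 37 libraries 697, 526 and 205. The summed circRNA signal ran from 376065 to 400547 on day 7 and from 19801 to 98269 in the late libraries, with the lowest late value on each day in the library numbered 3. The lowest signal listed was 28 or 29 on day 7 and 19 to 21 later. A 0 means that the circRNA was not listed, and it need not mean a signal under that level. On day 7 some circRNA stood at 0 in a library and among the strongest in another, as given below. Whole seeds were sampled, so fewer cells of a type and less RNA per cell cannot be told apart.

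The set carried most of the day 7 circRNA signal. Its share was 61.8%, 60.4% and 63.5% in the 3 day 7 libraries, a mean of 61.9% ± 1.55 (SD, n = 3). In number it was a smaller part, 284, 299 and 303 circRNA or 24.5% to 26.9% of those above 0 in a day 7 library. The signal was concentrated in few circRNA. The 10 with the highest mean held 78.6%, 80.5% and 80.5% of the signal of the set in the 3 libraries. The median of the mean day 7 signals was 43.3, the 10th percentile 19.3 and the 90th percentile 243. A mean of at least 1000 was reached by 22, against 47 in the whole table. It was also reached by 22 of the 373 circRNA seen in at least 2 day 7 libraries and in at least 1 late library. All 6 circRNA of the table with a mean of at least 10000 were in the set. In the limma fit of the circRNA table, 50.2% of 645 tested circRNA (324) fell at day 22 and 48.4% (312) at day 37. These counts were 49 and 94 with quantile normalization, and 155 to 182 and 156 to 179 without 1 of the day 7 libraries. The 142 tested circRNA of the set passed the filter through day 7 alone, and the rule used this contrast, so nothing is read from them. Among the 503 tested circRNA outside the set, 36.2% fell at day 22 and 33.8% at day 37.

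The most abundant day 7 circRNA was NC_035433.1:75074236-75089399, at 44832, 47060 and 49157 in the 3 day 7 libraries. The next, NC_035445.1:2850315-2853333, stood at 40388, 34337 and 39886. The longest of the set, NC_035449.1:50566231-50750807, stood at 32715, 27614 and 29633 and spanned 184576 bases. The 3 libraries lay close together for these circRNA, with coefficients of variation of 4.60%, 8.79% and 8.57%, while the 6 late libraries listed 0 for each. NC_035440.1:134826327-134847706 followed at 25001, 24491 and 22615. NC_035435.1:135414985-135445532, which starts at an exon of the assembled locus XLOC_027763, stood at 20110, 16410 and 19524. NC_035448.1:177620036-177661575 was listed at 8706, 8414 and 8145. These too were high in every day 7 library and spanned 21379, 30547 and 41539 bases. NC_035437.1:22117469-22200311 stood at 6051, 7070 and 5661, and NC_035439.1:27006353-27039365 at 4905, 5292 and 5314. The positions are given as the files give them, on the RefSeq sequences they name. The sources used here do not give the genome build, and some starts may be counted from 0.

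The other 2 of the 10 most abundant were missing from a day 7 library. NC_035437.1:210368813-210413986 was listed at 0, 16178 and 15004, and NC_035445.1:80724378-80752823 at 0, 8010 and 7654. Both were thus at 0 in replicate 1 and among the strongest signals of replicates 2 and 3. Of the 23 circRNA of the set with at least 1 value of 1000 or more, 10 had a 0 in another day 7 library. NC_035444.1:63140028-63196881 was the most uneven of these, at 0, 43 and 5762. Across the set, 142 circRNA were above 0 in all 3 day 7 libraries and 230 in 2. Of the latter, 88 were at 0 in replicate 1, 73 in replicate 2 and 69 in replicate 3. The median coefficient of variation of the 142 was 34.0%, and it was 30.6% for the 70 of them with a mean of at least 100.

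**Figure D1:**
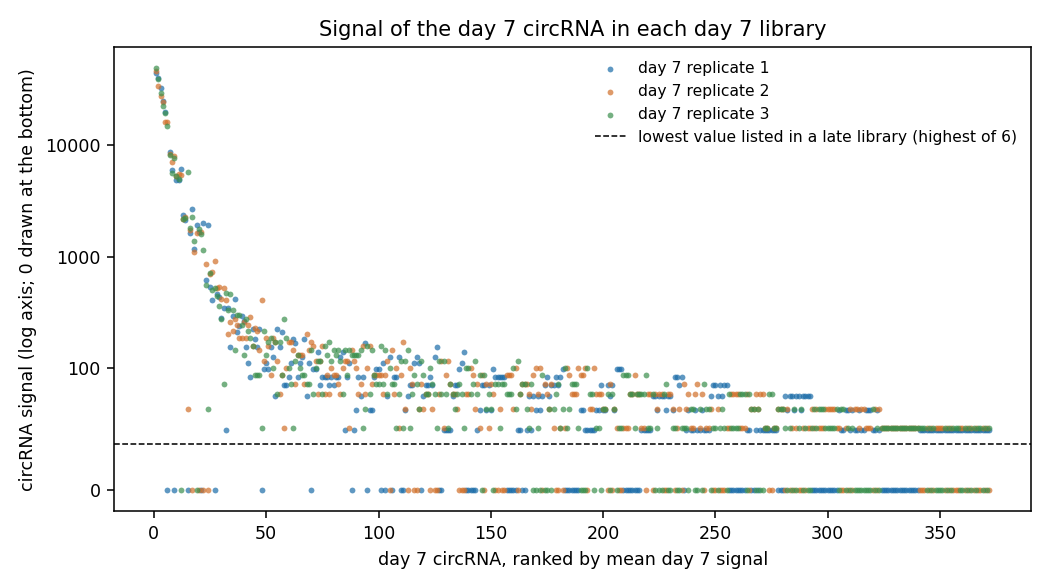
Signal of the 372 day 7 circRNA (log axis, no unit, 0 drawn at the bottom) in each day 7 library, ranked by their mean. The dashed line is the highest of the lowest values that a late library lists (21). The first ranks lie above 10000 in nearly all libraries, most of the set lies near the listing limit, and points at 0 occur along the whole range of ranks.

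Many of the weaker circRNA lay at the limit of listing. All values above 0 were at the lowest listed value in 53 circRNA of the set, 49 of them seen in 2 libraries and 4 in 3. The mean day 7 signal was at or under 21, the highest of the lowest late values, in 49. It was at least 3 times that level in 118 and at least 10 times in 40. Just inside the threshold, NC_035433.1:81438954-81439070, NC_035434.1:154515666-154516065 and NC_035434.1:160318598-160318945 stood at 28, 0 and 29 in the 3 day 7 libraries, the lowest mean of the set (19.0). Just outside were 1401 circRNA seen in a single day 7 library, 930 of them at the lowest value and 11 at 1000 or more. NC_035445.1:80725220-80753906 had the highest such value, 12072 in replicate 2 and 0 in the other 8 libraries, and NC_035447.1:49902512-49923328 was next at 3969 in replicate 1. Another 116 circRNA were kept out by 1 late library. Their late value had a median of 25 and was the lowest listed value in 58. NC_035443.1:128482744-128482894 had the highest, 614 on day 22, beside 1677, 0 and 1473 on day 7.

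The set was compared with 373 circRNA seen in at least 2 day 7 libraries and in at least 1 late library, since these also recur on day 7. The span, the distance between the outer ends of a circRNA on the genome, had a median of 586 bases in the set (quartiles 179 and 2454) and of 1027 in the circRNA also seen late. Spans under 200 bases made up 29.0% of the set and 10.99% of the circRNA also seen late. Spans of at least 10000 bases made up 16.9% and 13.9%. For circRNA seen in a single day 7 library the median span was 477 bases, and for 191 circRNA at 0 on day 7 and above 0 in at least 2 late libraries it was 2305. The set thus held more very short spans than the circRNA also seen late, as did the circRNA seen once on day 7. The median of the mean day 7 signals was 43.3 in the set and 110.0 in the circRNA also seen late. Short circRNA of the set were weaker, as given below, so span and nearness to the listing limit cannot be told apart here. Since circRNA are not replicates of a condition, these distributions were not tested.

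**Figure D2:**
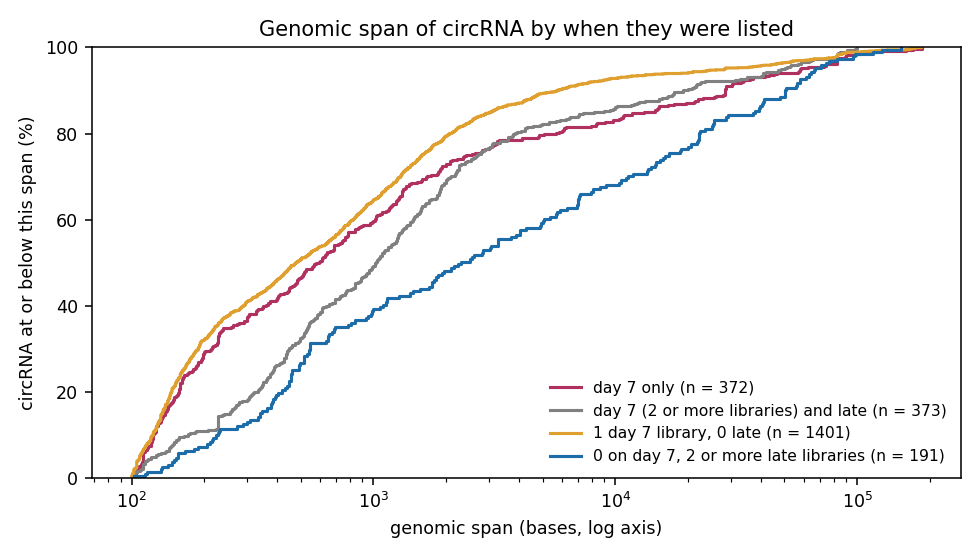
Share of circRNA (percent) at or below a span (bases, log axis) in the day 7 set and 3 other classes of circRNA. The curve of the set runs close to that of circRNA seen in 1 day 7 library at short spans, crosses 50% at 586 bases, and lies above that of circRNA also seen late (median 1027) at short spans and slightly below it at 10000 bases.

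Over libraries, the median span of all circRNA listed was 663, 775 and 614 bases on day 7, 910, 1095 and 1177 on day 22, and for day 37 it was 848, 1019.5 and 1257. Each late median was higher than each of day 7. The median span also rose as the number of circRNA listed in a library fell, over all 9 libraries and within each late day. It ran from 614 bases with 1237 listed to 1257 bases with 205 listed. The day and the number listed thus cannot be told apart here. The mean of the 3 medians was 684 ± 82.5 (SD, n = 3) on day 7, 1061 ± 137 on day 22 and, for day 37, 1042 ± 205. Each late day differed from day 7 with p = 0.1 in an exact permutation test (two-sided, n = 3 each), the smallest p that this design allows. Leaving out circRNA at the lowest value of their library, the medians were 988, 1034 and 841 on day 7, 1086, 1567.5 and 1961 on day 22 and 993.5, 1040 and 1337 on day 37, so day 7 and day 37 then overlapped.

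Length and signal went together at the upper end. Of the 22 circRNA of the set with a mean of at least 1000, 19 spanned 10000 bases or more. The other 3 were NC_035445.1:2850315-2853333 with 3018 bases, NC_035445.1:76197424-76205804 with 8380 bases and NC_035439.1:78865022-78865166 with 144 bases. That short one stood at 1635, 1735 and 1820 on day 7, an even and high level for its size. The 63 circRNA of at least 10000 bases gave 73.9%, 77.2% and 75.5% of the signal of the set in the 3 libraries. Their median mean signal was 100.3, against 33.3 for the 108 circRNA under 200 bases. Over all 372 circRNA Spearman's rho of span and mean day 7 signal was 0.33, a description over circRNA that share libraries.

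**Figure D3:**
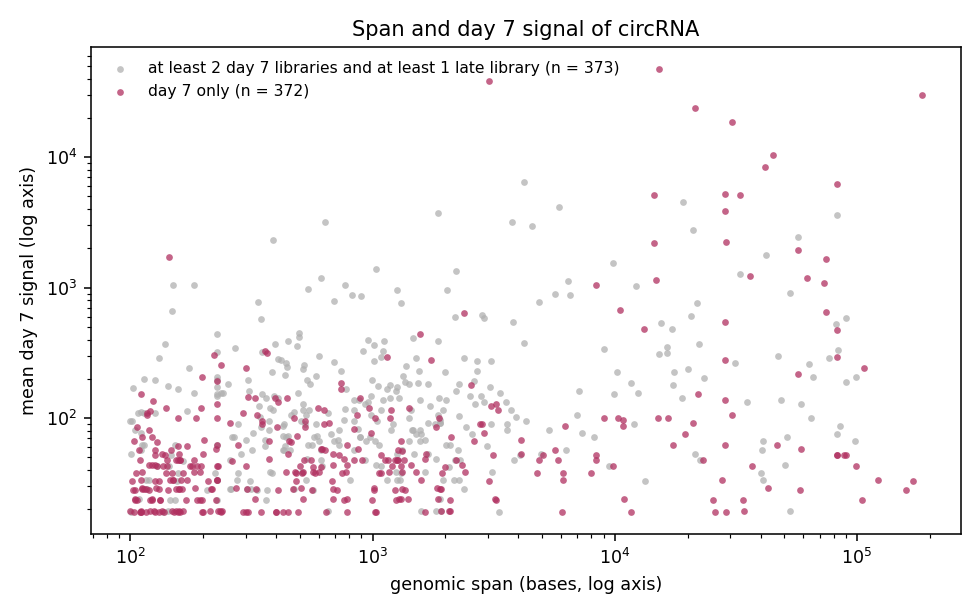
Mean day 7 signal (log axis, no unit) against genomic span (bases, log axis) for the day 7 set (red) and for circRNA also seen late (grey). The 6 points above 10000 are all red, and 19 of the 22 red points at 1000 or more lie at spans of 10000 bases or more.

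Great length alone did not go with a high signal. After the circRNA of 184576 bases, the longest were NC_035438.1:71724259-71894806 with 170547 bases, at 70, 0 and 29, and NC_035436.1:5769213-5929029 with 159816 bases, at 42, 43 and 0. NC_035436.1:102325155-102447116 with 121961 bases stood at 28, 29 and 43, and NC_035435.1:151473061-151580394 with 107333 bases at 293, 188 and 245. The first 3 of these 4 lay near the listing limit, and only the last was well above it in every day 7 library. The shortest circRNA of the set were also weak. NC_035441.1:177325454-177325554, with 100 bases, stood at 0, 29 and 29. NC_035448.1:134171912-134172014 stood at 70, 0 and 29, and NC_035449.1:48772479-48772582 at 56, 29 and 0. NC_035437.1:217739196-217739300 stood at 28, 29 and 0, and NC_035445.1:2814426-2814530 at 70, 101 and 29.

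Several of the long, abundant circRNA came in families with displaced ends. Among the 63 long ones there were 10 pairs, made of 15 circRNA, whose starts and ends both lay within 2000 bases of each other. In 9 pairs both ends were shifted the same way, so that the spans differed by 0% to 3.81% (median 0.237%), and 1 pair shared its start. On NC_035437.1, the circRNA from 22115506 to 22198152 and from 22115681 to 22198327 both spanned 82646 bases, the second moved by 175 bases at both ends. The first stood at 98, 58 and 0 and the second at 461, 520 and 448, while another of the family, from 22117469, was the abundant one given above. On NC_035445.1, 80724210-80752649 stood at 6149, 5451 and 0, and its neighbour 80724378-80752823, with a start moved by 168 and an end by 174 bases, at 0, 8010 and 7654. Each was thus absent from a library in which the other was strong. The circRNA at 12072 in replicate 2 alone overlaps them. The summed signal of this place was 6442, 25750 and 8073. The sum thus differed between libraries as well.

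Zeros in single libraries also occurred in other families. On NC_035439.1, 77189198-77203996 stood at 1677, 0 and 1762, beside 77189630-77204204 at 4919, 5523 and 5025. Their sum was 6596, 5523 and 6787. Between 210338776 and 210414561 on NC_035437.1, 5 circRNA of the set overlapped. 210338776-210411595 stood at 0, 1677 and 1603, and 210338776-210413290, with the same start, at 1915, 0 and 43. 210339995-210414561 stood at 2683, 0 and 2296, and 210349146-210411510 at 1915, 1648 and 0. With 210368813-210413986, given above, each of the 5 was at 0 in 1 day 7 library, and no library lacked all of them. A further circRNA of this place, 210339413-210413986, was listed at 58 in day 7 replicate 2 and at 73 in day 37 replicate 1. On NC_035433.1, the strongest circRNA of the set had a partner, 75075175-75089760, at 2138, 2284 and 2209, whose start and end lay 939 and 361 bases further on.

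Nested circRNA with a common end were listed too. Within 1 base, 39 circRNA of the set shared an end with another of the set, in 18 groups. The largest group had 4, all ending at 151580394 on NC_035435.1. The shortest of these, starting at 151551600, was the strongest, at 2362, 2183 and 2181, and those starting at 151523130, 151498086 and 151473061 stood at 266, 260 and 130, at 349, 202 and 332, and at 293, 188 and 245. Their spans were 28794, 57264, 82308 and 107333 bases, and the 3 longer circRNA had similar levels. The next group had 3, ending at 123413254 on NC_035436.1. These stood at 154, 260 and 462 (start 123412104), at 70, 101 and 188 (start 123412660) and at 98, 87 and 72 (start 123412851). The other 16 groups had 2 each.

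Short circRNA formed arrays as well. On NC_035436.1, 81195811-81196039 and 81196039-81196267 both spanned 228 bases, and the first ended where the second started. They stood at 84, 159 and 58 and at 112, 246 and 217 on day 7. Further circRNA of 228 bases continued the row from 81196267 and from 81196495. These 2 were not in the set, because the first was listed at 31 on day 22 and the second at 83 on day 22 and 81 on day 37. On NC_035437.1, 5 circRNA between 51852195 and 51852549 spanned 111 to 231 bases. All were at 0 in day 7 replicate 1 and between 29 and 101 in the other 2 libraries. An equal span and overlap with another circRNA was found for 17 of the set (4.57%) and for 18 of the circRNA also seen late (4.83%). An end at the start of another was found for 12 (3.23%) and 4 (1.07%).

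**Figure D4:**
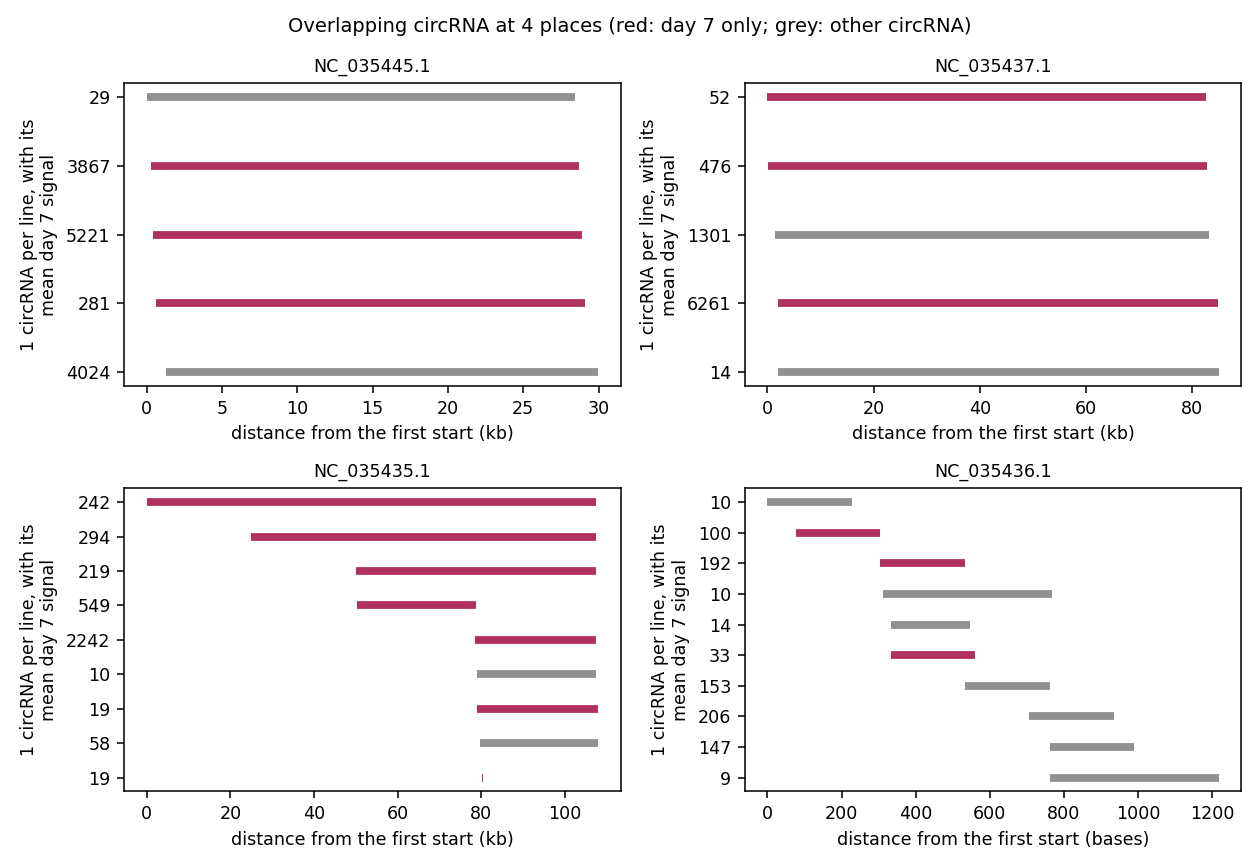
Overlapping circRNA at 4 places, drawn to scale by distance from the first start (kb, or bases at the lower right), with the mean day 7 signal at the left of each line. Red lines are day 7 circRNA and grey lines are other circRNA. The upper panels show spans moved in parallel, the lower left panel circRNA with a common end, and the lower right panel spans of 228 bases in a row.

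Late signal was listed at some of the places where the set lay. Of the 372 circRNA, 225 overlapped no other circRNA of the table, and for these the rule leaves no late signal. Of the other 147, 58 lay in 42 groups of overlapping circRNA with late signal. At the level of single ends, 59 circRNA of the set shared an end, within 1 base, with 76 circRNA outside it. Of these partners 24 had late signal, 18 of them on day 7 too, and they belonged to 21 circRNA of the set. The signal of the 76 partners summed to 10386, 10497 and 9966 on day 7, to 1904, 938 and 824 on day 22 and to 618, 312 and 57 on day 37. This sum was lower in every late library than in any day 7 library, but not 0. Of the 76 partners, 52 were seen in a single day 7 library and in no late library, so they add to day 7 alone. The summed signal of all circRNA was also lower late (19801 to 98269) than on day 7 (376065 to 400547). The NC_035435.1 circRNA 155465613-155476387 of the set, at 28, 116 and 144, shares its start with 155465613-155477868. The latter stood at 1230, 940 and 939 on day 7, at 166, 70 and 48 on day 22 and at 0 on day 37. Both lie at LOC110930653. On the genome the set was spread over 17 large sequences with 13 to 29 circRNA each, 7.22% to 14.4% of those listed there. Another 2 lay on unplaced sequences and none on an organelle.

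Host genes could be looked for on 5 sequences, those with exons in the deposited assembly, which held 112 of the 372 circRNA. A host was a gene or assembled locus with an exon start within 1 base of the circRNA start or an exon end within 1 base of its end. Such a boundary was found for 22 circRNA, 19.6% of the 112. For 14 (12.5%) both ends lay at exon boundaries of the same gene or locus. In the circRNA also seen late the shares were 30.2% and 19.8% of 96, and in those seen once on day 7 19.5% and 12.8% of 462. The assembly lists transcripts that differ from the annotation and, on NC_035437.1, no minus strand exon beyond 48838125, so hosts can be missed. Of the 112, 58 overlapped an assembled transcript. Gene IDs were matched to symbols, given as LOC followed by the ID, through the RefSeq gene table of assembly HanXRQr2.0-SUNRISE. Product names were not used here, so the roles of these genes are not given.

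The 14 circRNA with both ends at exons of a gene lay at inner exons. Of these, 13 took in several exons and 1 a single exon, and none took in the first or the last exon of its listed transcript. Their exons summed to 228 to 967 bases, with a median of 407. Exon numbers below count along the coordinates. The strongest, NC_035433.1:131295846-131296585, stood at 84, 289 and 188 and ran from exon 2 to exon 3 of 5 of a transcript of LOC110878544. NC_035434.1:156444418-156445826 stood at 182, 145 and 29 and took in exons 2 to 4 of 8 of LOC110925283, the longest exonic sequence at 967 bases. NC_035435.1:40176722-40177055, the single exon circle, was exon 4 of 11 of LOC110928949 with 333 bases, and stood at 98, 159 and 58. These 3 were above 0 in every day 7 library.

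The remaining exon circles were weaker. NC_035434.1:150715459-150721294 at LOC110924451 took in the most exons, 5 to 14 of 16, and stood at 28, 72 and 43. NC_035434.1:175584414-175586062 at LOC110927253 (exons 3 to 6 of 10) stood at 0, 87 and 58. NC_035433.1:88302655-88303856 at LOC110871327 (exons 2 to 4 of 13) stood at 42, 87 and 0. NC_035433.1:100514185-100514960 at LOC110873008, a gene of the lncRNA class, took in exons 4 to 7 of 13 and stood at 28, 29 and 58. Only the first and the last of these 4 were above 0 in all 3 libraries. NC_035436.1:177355328-177357175 at LOC110938203 (exons 3 to 6 of 18) and NC_035436.1:144792807-144793825 at LOC110937360 (exons 12 to 15 of 19) both stood at 0, 58 and 29. NC_035433.1:76128686-76129193 at LOC110869205 (exons 2 to 4 of 10) stood at 0, 29 and 58. NC_035433.1:111881099-111881426 at the locus XLOC_009846 (exons 17 and 18 of 20) and NC_035436.1:140395404-140396689 at LOC110937263 (exons 3 to 7 of 10) both stood at 0, 29 and 43. NC_035435.1:125351429-125352683 at LOC110929916 (exons 2 to 4 of 6) stood at 28, 0 and 43, and NC_035434.1:154515666-154516065 at LOC110924881 (exons 2 to 4 of 11) at 28, 0 and 29. These 7 were each at 0 in 1 day 7 library and between 28 and 58 in the others.

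The FPKM of the host genes was not used to choose the set, but it comes from the same libraries and does not separate linear RNA from circRNA. A circRNA listed on day 7 needs a host transcribed on day 7. The host levels are thus not independent of how the set was chosen. Most host genes had less mRNA on the late days than on day 7, and no annotated host rose. Of the 19 annotated hosts, 15 were in the mRNA table and 14 passed the filter. Of these 14, 8 fell at day 22 and 13 fell by day 37. Among all 26364 tested annotated genes, 32.5% fell and 21.4% rose at day 22, and 50.4% fell and 24.3% rose by day 37. With 9 assembled loci added, 12 of 23 host features fell at day 22 against 24.9% of the whole mRNA table, and 0 of 23 rose against 34.1%. Some of the 23 are a gene and a locus at the same circRNA, so they are not all separate hosts. LOC110942209 with MXLOC_055160, and LOC110871327 with MXLOC_008890, are such pairs in which both fell. By day 37, 17 of 23 fell against 38.8%, and 1 rose against 39.4%. From day 22 to day 37, 5 of 23 fell against 16.6%, and 0 rose against 0.843%. A fall was common in the whole table, and 6 of the 23 host features, 3 annotated genes and 3 loci, passed the filter through day 7 alone and so had to fall. Of the other 17 features, 6 fell at day 22 and 11 by day 37. Of the other 11 annotated genes, 5 fell at day 22 and 10 by day 37. The shares given above for all tested features were not restricted in this way, so these counts have no like background here. The hosts of circRNA also seen late stood at 8 of 20 annotated genes fallen at day 22 and 15 of 20 by day 37, and those of circRNA seen once on day 7 at 29 and 47 of 58. No difference between these classes was tested.

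The median log2 change of all tested mRNA features was 0.09 at day 22 and −0.32 at day 37 as deposited, and 0.53 and 0.61 with median-of-ratios scaling. With that scaling 14 host features fell and 3 rose by day 37, beside 23.9% fallen and 46.2% risen in the whole table. The late libraries numbered 3 had the lowest level of several hosts, as given below, and the part of these libraries in the falls was measured by leaving both out. Without them 12 of the host features still fell at day 22 and 16 by day 37.

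The annotated hosts with the largest falls at day 22 went from high day 7 levels to nearly nothing. LOC110942249 stood at 126.78, 89.34 and 120.25 FPKM on day 7, at 1.25, 1.58 and 1.73 on day 22 and at 0.06, 0.19 and 0.24 on day 37. The days did not overlap. Its log2(FPKM + 1) fell by 5.48 ± 0.27 (SE) at day 22 (limma adjusted p 3.72e-09) and changed by −6.59 ± 0.27 by day 37 (adjusted p 6.66e-10). Its circRNA, NC_035437.1:212139379-212139502, ends at an exon end of the gene and stood at 84, 58 and 72. LOC110938203 stood at 39.06, 34.29 and 38.92 FPKM on day 7 and between 0 and 0.46 in the late libraries, a log2 change of −4.98 at day 22 and −5.21 at day 37. LOC110924881 stood at 20.1, 20.79 and 20.28 FPKM on day 7, and each late library listed it at 0. The assembled locus MXLOC_022213 at the same place did not fall, and gene and locus together had 40.05, 40.18 and 41.56 FPKM in the day 7 libraries, 24.45, 35.58 and 45.44 in those of day 22, and 39.16, 44.9 and 53.53 in those of day 37. The summed values of the days overlap, so the fall of this gene is uncertain. LOC110942209 stood at 21.8, 22.11 and 18.99 FPKM on day 7 and between 0.01 and 0.34 later, with log2 changes of −4.19 and −4.37. These last 3 genes are the ones that passed the filter through day 7 alone.

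LOC110925283 was the host with the highest day 7 level and had another time course. It stood at 176.32, 187.52 and 201.59 FPKM on day 7 and at 124.34, 115.92 and 100.63 on day 22, then at 2.35, 1.99 and 1.52 on day 37. Its log2 change at day 22 was −0.73 ± 0.41 (SE; limma adjusted p 0.114), and its sign turned with quantile normalization (0.37). By day 37 it fell by 6.01 ± 0.41 (adjusted p 3.63e-08), and from day 22 to day 37 it fell by 5.28 (adjusted p 1.04e-06). Its mRNA was thus still abundant on day 22, when its day 7 circRNA, at 182, 145 and 29 before, was listed at 0 in all 3 libraries. LOC110869205 fell early, from 82.89, 85.23 and 85.27 FPKM to 5.61, 4.4 and 3.86 on day 22 and 5.48, 5.04 and 1.45 on day 37. Its log2 change was −3.94 ± 0.41 at day 22 (adjusted p 2.06e-06) and −4.22 at day 37.

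Other hosts kept part of their mRNA. LOC110937360 stood at 43.71, 45.11 and 46.36 FPKM on day 7, at 25.39, 19.32 and 11.45 on day 22 and at 26.05, 19.48 and 3.35 on day 37. It was lowest in the library numbered 3 on both late days. The log2 change at day 22 was −1.29 with a limma adjusted p of 0.0662, and at day 37 −1.78 with an adjusted p of 0.0141. Without day 37 replicate 3 the latter was −0.97 (adjusted p 0.0103), under the fold threshold, and the call was also lost with median-of-ratios scaling (−0.74) and quantile normalization (−0.34). LOC110937263 was not called at either late day, with 2.26, 2.23 and 2.47 FPKM on day 7, 2.62, 1.98 and 0.72 on day 22 and 1.7, 1.48 and 0.24 on day 37. Its circRNA of 5 exons was listed at 0 on both late days, while its mRNA on day 22 overlapped that of day 7. The call of the fall of LOC110865626 by day 37 was lost with median-of-ratios scaling.

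Among hosts of low level, LOC110928949 and LOC110871327 fell at both late days against day 7. LOC110928949 went from 5.75 ± 0.395 FPKM (SD, n = 3) to 0.913 ± 0.323 and 0.0467 ± 0.0503, with log2 changes of −1.83 and −2.69 against day 7. LOC110871327 went from 5.66 ± 0.992 to 1.25 ± 0.641 and 0.0433 ± 0.0751 FPKM, with −1.60 and −2.67. From day 22 to day 37 the change of LOC110871327 was −1.07, a call lost with median-of-ratios scaling (−0.96), with quantile normalization (−0.72) and without day 22 replicate 1 (−0.85), and that of LOC110928949 was −0.86 and not called. LOC110929916 fell at both late days, with the day 22 call lost under median-of-ratios scaling (−0.95), while LOC110909291, LOC110865626 and LOC110930653 fell by day 37 and were not called at day 22. LOC110930653, which the gene table classes as lncRNA, stood at 3.28, 2.61 and 2.5 FPKM on day 7, at 1.85, 1.42 and 0.88 on day 22 and at 0 on day 37. It is the place where circRNA outside the set were also listed on day 22 and at 0 on day 37.

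**Figure D5:**
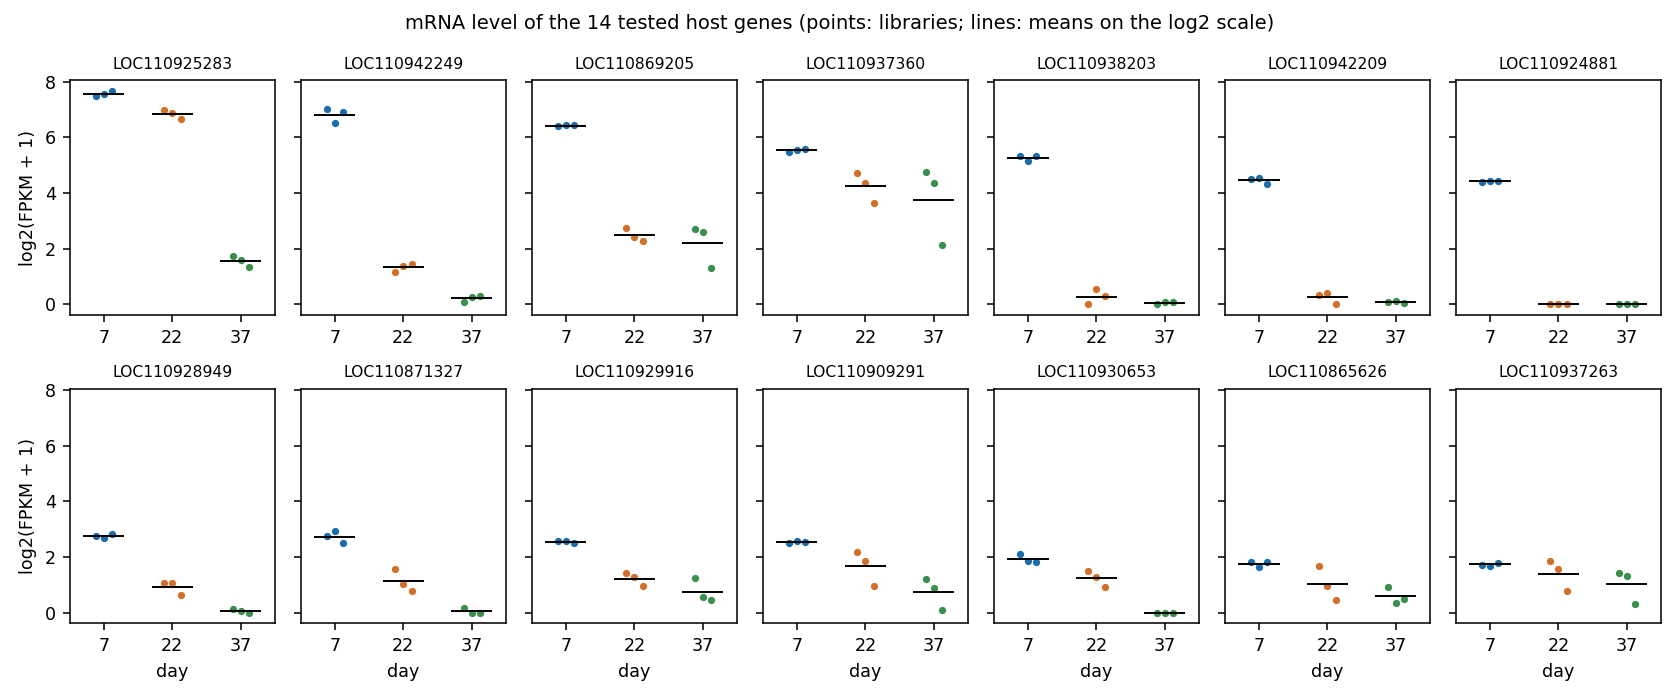
Level of the 14 tested annotated host genes, as log2(FPKM + 1), in each library of day 7, day 22 and day 37, with the mean on that scale as a line. LOC110925283 stays near its day 7 level on day 22 and is low on day 37, LOC110924881 is at 0 on both late days, and the points of LOC110937263 overlap between day 7 and day 22.

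Assembled loci at the same places gave a mixed picture. The locus MXLOC_055160 stood at 38.19, 40.74 and 38.28 FPKM on day 7 and at or under 0.87 later, and MXLOC_009846 fell from 23.2 ± 1.15 FPKM to 5.01 ± 0.609 and 2.77 ± 0.625 (SD, n = 3). MXLOC_004794, at the place of LOC110878544, stood at 4.97, 5.34 and 4.79 FPKM on day 7 and at 0 in every late library, while LOC110878544 itself was at or under 0.22 FPKM in every library. MXLOC_022213, at the place of LOC110924881, went the other way. It stood at 19.95, 19.39 and 21.28 FPKM on day 7, at 24.45, 35.58 and 45.44 on day 22 and at 39.16, 44.9 and 53.53 on day 37. Its log2 change by day 37 was 1.13 (limma adjusted p 0.0201), the only rise among the host features. The adjusted p was 0.108, 0.117 and 0.0978 without day 7 replicate 1, 2 or 3. Where a gene and a locus cover the same exons the authors' quantification could split reads between them, so these values are uncertain. In the lncRNA table, where 1.69% of the features fell at day 22 and 3.88% by day 37, the host LOC110873008 stood at 16.6, 16.79 and 16.69 FPKM on day 7, at 12.57, 9.44 and 5.91 on day 22 and at 12.34, 10.43 and 3.02 on day 37. It fell by 1.06 on the log2 scale by day 37 (limma adjusted p 0.00643) and was not called at day 22. Without day 37 replicate 3 the change was −0.52 (adjusted p 0.0942).

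A few of the strongest circRNA, and a group of weaker ones, overlapped assembled transcripts antisense to abundant day 7 genes. They shared no assembled exon boundary. These were singled out after their values were seen. Other strong circRNA, NC_035437.1:210368813-210413986 and NC_035435.1:151551600-151580394 among them, overlapped no assembled transcript. At the first of these the assembly lists no minus strand exon. NC_035433.1:75074236-75089399 overlaps an assembled transcript that the assembly marks as antisense to LOC110937061. This gene stood at 1964.1, 1962.42 and 2070.76 FPKM on day 7, at 2.9, 2.13 and 1.68 on day 22 and at 0.32, 0.29 and 0.27 on day 37. Its log2 changes against day 7 were −9.29 ± 0.36 (SE) and −10.59 ± 0.36 (limma adjusted p 5.00e-10 and 3.20e-10). LOC110937069, 2 genes away in the gene order of that assembly, stood at 1428.97, 1472.59 and 1504.96 FPKM on day 7 and at or under 0.49 in every late library. The gene between them, LOC110910029, was at or under 0.51 FPKM in every library. NC_035437.1:22117469-22200311 overlaps an antisense transcript at LOC110939925, which went from 397 ± 7.10 FPKM (SD, n = 3) to 18.8 ± 5.15 and 8.65 ± 5.20. Its neighbours LOC110939927, at 44.7, 44.7 and 27.1 FPKM on the 3 days, and LOC110939924, at 5.81, 5.14 and 3.67 FPKM, were not called against day 7. Between 42307180 and 42307842 on NC_035434.1, 13 short circRNA, 5 of them in the set, lie at an antisense transcript of LOC110914214. Those of the set were weaker, with mean day 7 signals from 29.0 to 205. The day 7 level of this gene was 1051 ± 132 FPKM, and it was 117 ± 10.9 on day 22, then 0.77 ± 0.265 on day 37. The sources used here do not say whether the counting used strand, so reads of a gene and its antisense partner cannot be told apart.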

How the data were processed

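CircRNA junction signals, mRNA levels and lncRNA levels of 9 libraries were analysed, 3 per day. Gene levels were deposited by the authors as FPKM, per the file headers. The deposited circRNA signal has no unit in its header, and the depth of each library is unknown. In each library the signal was 0 or lay on a grid with a step between 9.46 and 14.5, with 2 steps as the lowest value above 0, to within 0.63 for all values under 400. Exon starts and ends of an assembly were also deposited, and other details of how they were made are not given in the sources used here. The submitters' processing notes name, without their roles, DESeq2 1.4.5, RSEM 1.2.12, HISAT2 2.0.4 and Bowtie2 2.2.5.

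The circRNA, gene lists and comparisons were chosen with earlier results of these data known. The named circRNA were those with the 10 highest day 7 means, the 5 longest and 5 shortest, those with both ends at exon boundaries of 1 gene, the largest groups with a shared end and those next to the threshold. The named host genes were the 10 with the largest change among those called against day 7 and the 5 with the highest day 7 level. The families with displaced ends, the short arrays and some further hosts, LOC110865626 and LOC110937263 among them, were named outside these rules. Lists by product name, seed and cell type markers included, could not be used, because no table paired gene IDs with product names, so the labelled tissue was not checked.

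Tables were fitted with limma 3.58.1 (R 4.3.3, trended and robust empirical Bayes, all 9 libraries) on log2(FPKM + 1), keeping features that reached 1 FPKM in 3 or more libraries. The circRNA table was fitted on log2(signal + 19), keeping those above 0 in 3 or more libraries. A call needed a p under 0.05 after Benjamini-Hochberg adjustment over the whole table and a log2 fold change of 1 or more in size. The fits were tested on simulated data. Median spans were compared by an exact two-sided permutation test over libraries. The alternatives were other pseudocounts, filters and scalings, a replicate block, other host definitions and single libraries left out. A test on read counts was not run, because the signal did not give whole reads. Same-numbered libraries of day 22 and day 37 deviated together in the mRNA table for numbers 1 and 3 (correlations of 0.77 and 0.78), and less so for number 2 (0.15). Those of day 7 did not deviate with either late day (between −0.06 and 0.06). Whether the numbers pair the late libraries was not tested. The p-values given use no pairing, also from day 22 to day 37, and the replicate block covered all 9 libraries, day 7 included. Other computations used Python 3.11.15 with matplotlib 3.10.9, scipy 1.17.1, numpy 2.4.6 and pandas 2.3.3.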

Additional observations from a re-analysis of the deposited data

How the results depend on the processing

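Of 303 values recomputed under other settings, 232 kept their side of the threshold or stayed within 1.5 times the value given, 71 moved further and 0 reversed. Most of these values are counts, which cannot reverse, and only the differences in median span could have done so. The signs of some single features did turn, as given for LOC110925283. The number of day 7 circRNA was 142 when a value in all 3 day 7 libraries was asked for, 1773 for at least 1, 174 for at least 2 steps above the lowest value, and 211 to 410 with single libraries left out. The partners with late signal numbered 66 with any overlap. Over the circRNA table, 324 fell and 17 rose at day 22 and 312 and 21 at day 37. Quantile normalization gave 49 and 34, and 94 and 64. Median-of-ratios scaling gave 186 and 26 at day 22. Without a filter 10 rose at day 22, and without both late libraries numbered 3, added after seeing the data, 38 rose at day 37. Single libraries left out gave 155 to 336 fallen and 7 to 18 risen at day 22, and 156 to 332 and 11 to 41 at day 37.

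Fallen mRNA host features at day 22 numbered 20 of 33 tested (60.6%) for circRNA within a gene. For circRNA in all 3 day 7 libraries they numbered 3 of 6 (50.0%). With any overlap (added after seeing the data) they numbered 25 of 41 (61.0%), beside 12 of 23 (52.2%) in the main setting. They numbered 6 to 14 with single libraries left out. The low end, 6, came without any 1 of the day 7 libraries, because features under 1 FPKM in every late library then no longer reach 3 libraries at that level. Risen ones numbered 2 with a pseudocount of 0.1, 1 with quantile normalization, 2 within a gene and 2 with any overlap. At day 37, 10 fell with a minimum of 5 FPKM and 11 to 17 with single libraries left out. With both ends at 1 gene 11 of 16 tested (68.8%) fell, and in all 3 day 7 libraries 5 of 6 (83.3%). With any overlap 32 of 41 (78.0%) fell, beside 17 of 23 (73.9%) in the main setting. Risen ones numbered 3 with a pseudocount of 0.1, with median-of-ratios scaling, within a gene and with any overlap, 0 for circRNA in all 3 day 7 libraries and for annotated genes alone, and 0 to 1 with single libraries left out. From day 22 to day 37, 2 fell with a minimum of 5 FPKM, 3 with median-of-ratios scaling and 2 with quantile normalization. By host definition, 3 of 16 tested fell with both ends at 1 gene, 8 of 33 within a gene and 9 of 41 with any overlap. The main setting had 5 of 23.

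For lncRNA hosts at day 22, 1 fell with median-of-ratios scaling and with quantile normalization, 3 within a gene and 3 with any overlap, with which 1 rose, and 0 to 1 fell with single libraries left out. At day 37, 4 fell within a gene and with any overlap, with which 4 rose, 0 fell without both late libraries numbered 3, and 0 to 1 with single libraries left out. With the replicate block 13 mRNA host features fell at day 22, 17 fell and 1 rose at day 37, and 5 fell from day 22 to day 37, so the block moved no such count by over 1.5 times. The cause of these movements was not tested, apart from the filter named above. A test on read counts was not run. The median-of-ratios and quantile splits of the whole mRNA table were 33.9% and 52.9% fallen among those called at day 22 (42.2% as deposited), 34.1% and 52.4% at day 37 (49.6%) and 71.0% and 72.4% from day 22 to day 37 (95.2%).

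The main limits are that the late libraries held less circRNA signal in all and that the depth of the libraries is unknown. A 0 on a late day means not listed, and need not mean a signal under the lowest listed value, 19 to 21. Hosts could be looked for on 5 sequences only.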
